A study of Mus musculus with 6 samples.

Results

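The myogenic basic helix-loop-helix (bHLH) factors Myod1, Myf5, Myog and Myf6 and the MEF2 factors Mef2a, Mef2b, Mef2c and Mef2d were examined on day 4 of myoblast differentiation. These 8 genes were taken by name out of the 55421 genes of the count table, with no threshold on a measured value. RNA-seq covered 3 control libraries and 3 miR-322/-503 libraries. All 6 came from C2C12, mouse myoblasts that can be brought to form myotubes in low serum, and all carried a stably transfected GFP gene with 200 CUG repeats in its transcript (labelled CUG200), the model of myotonic dystrophy type 1 (DM1). The control line held the empty pLL4.0 vector and the miR-322/-503 line held the same vector with the microRNA cluster. Each group was a drug-selected line of its own, so a difference between the lines and an effect of the microRNAs cannot be told apart. The labels do not say whether replicates came from separate cultures, and the p-values then measure only the spread between these samples.

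The myogenic bHLH factors bind E-boxes (CANNTG) as dimers with E proteins. Myod1 and Myf5 set the myoblast identity, Myog drives the step to differentiated myocytes, and Myf6 (Mrf4) is mostly a gene of late myotubes and muscle fibres. MEF2 proteins are MADS-box factors that bind A/T-rich sites, cooperate with the bHLH factors at muscle genes, and are held in check by class II histone deacetylases. Mef2c is the MEF2 gene most closely tied to the differentiated state in muscle, whereas Mef2a and Mef2d are made in many tissues.

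The overexpressed microRNAs are shown first, with the seed (bases 2 to 8) in capitals, because the search of the 3'UTRs rests on it. Sequences are from RefSeq (GRCm38.p6), where miR-322-5p lies at chrX:53054306-53054327 and miR-503-5p at chrX:53054027-53054049, both on the minus strand.
miR-322-5p: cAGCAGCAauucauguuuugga
miR-503-5p: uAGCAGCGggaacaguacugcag
The seeds differ in their last base, so the matches searched in DNA letters were TGCTGCT for miR-322-5p and CGCTGCT for miR-503-5p. Of 20674 longest 3'UTRs in GENCODE M21, 20.6% held the first and 4.00% the second. None of the 8 factor genes held TGCTGCT, and CGCTGCT was found only in Mef2b. That site is printed with the match in capitals and lies at chr8:70167188-70167217 on the plus strand of GRCm38, in the 3'UTR.
Mef2b 3'UTR site: ccttcccctaccCGCTGCTccttgccaggc
A match is a description of the sequence, and a lack of one says only that these letters are not in the 3'UTR searched. The microRNAs themselves could not be followed in these libraries. Mir322 had 1, 7 and 2 estimated counts in the control libraries, and 17, 0 and 3 with miR-322/-503. Mir503 was counted at 1, 1 and 2 in the control and at 6, 4 and 5 in the miR-322/-503 libraries. Only 1 of these 12 values was above 12 estimated counts, the level of 3 read pairs, so the overexpression was not checked by them.

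Of the 8 factor genes, 7 were tested, 5 rose with miR-322/-503, 1 fell and 1 did not pass. The genes that rose were Mef2c, Mef2d, Mef2a, Myod1 and Myf5, and the gene that fell was Myog. Among all 18140 tested genes, 13.2% were higher and 15.5% lower at an adjusted p under 0.05 (edgeR, quasi-likelihood test). The libraries of both groups did not overlap in CPM for 5 of the 7 upward and for 1 downward, beside 21.6% and 23.5% of all tested genes. The median log2 fold change of the 7 was 0.39, against -0.01 for all tested genes. Of these 7, only Mef2c passed the fold limit of the study (an absolute log2 fold change over 1), which 4.59% of all tested genes passed upward and 5.29% downward. In bulk RNA, fewer cells of a type and less RNA per cell cannot be told apart. Markers of the labelled cell type were present in both groups but did not all move one way. Desmin (Des) stood at 783 TPM in the control and 1185 TPM in the miR-322/-503 libraries. Cdh15, Ckm and Myod1 also rose, Myog fell, and Acta1 and the fusion gene Mymk did not pass the test.

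**Figure D1:**
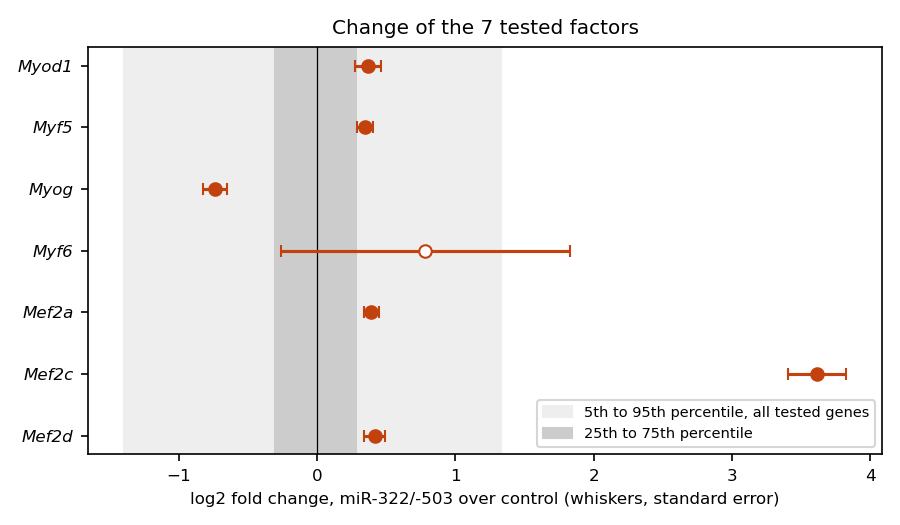
Log2 fold change of the 7 tested factors, miR-322/-503 over control (x axis), with the standard error as whiskers and shading for the central ranges of all 18140 tested genes. Mef2c, at 3.61, lies alone beyond the 95th percentile of 1.33, Myog lies at -0.74, and the open point of Myf6 did not pass the test.

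Levels between the genes were compared in TPM (a level per transcript length and library size, as deposited). In the control, Myog stood highest at 258 ± 20.9 TPM (SD, n = 3). Mef2d followed at 76.2 ± 6.09, Mef2a at 68.3 ± 2.58, Myod1 at 47.6 ± 6.34 and Myf5 at 34.5 ± 0.587 TPM. Far below them were Mef2c at 1.52 ± 0.558 TPM, Myf6 at 0.388 ± 0.430 TPM and Mef2b, which was listed at 0 in each control library. The order was the same in the miR-322/-503 libraries, with Myog at 153 ± 17.0, Mef2d at 95.8 ± 8.80, Mef2a at 88.2 ± 2.50, Myod1 at 60.6 ± 4.32, Myf5 at 43.3 ± 1.58, Mef2c at 12.7 ± 0.864, Myf6 at 0.665 ± 0.240 and Mef2b at 0.128 ± 0.110 TPM. Mef2d and Mef2a overlapped in the miR-322/-503 libraries, where no other neighbours in the order did. In the control the lowest Mef2d library, at 71.1 TPM, was barely above the highest Mef2a library, at 70.9 TPM. This order depends on the length used. With estimated counts divided by the union of all annotated exons, Mef2a came out at 31.6 TPM in the control, below Myod1 and Myf5 at 67.1 and 48.7 TPM. In the deposited TPM, Myog in the control was higher than 97.1% of all tested genes and Mef2c than 26.8%, a share that was 54.3% for Mef2c in the miR-322/-503 libraries.

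**Figure D2:**
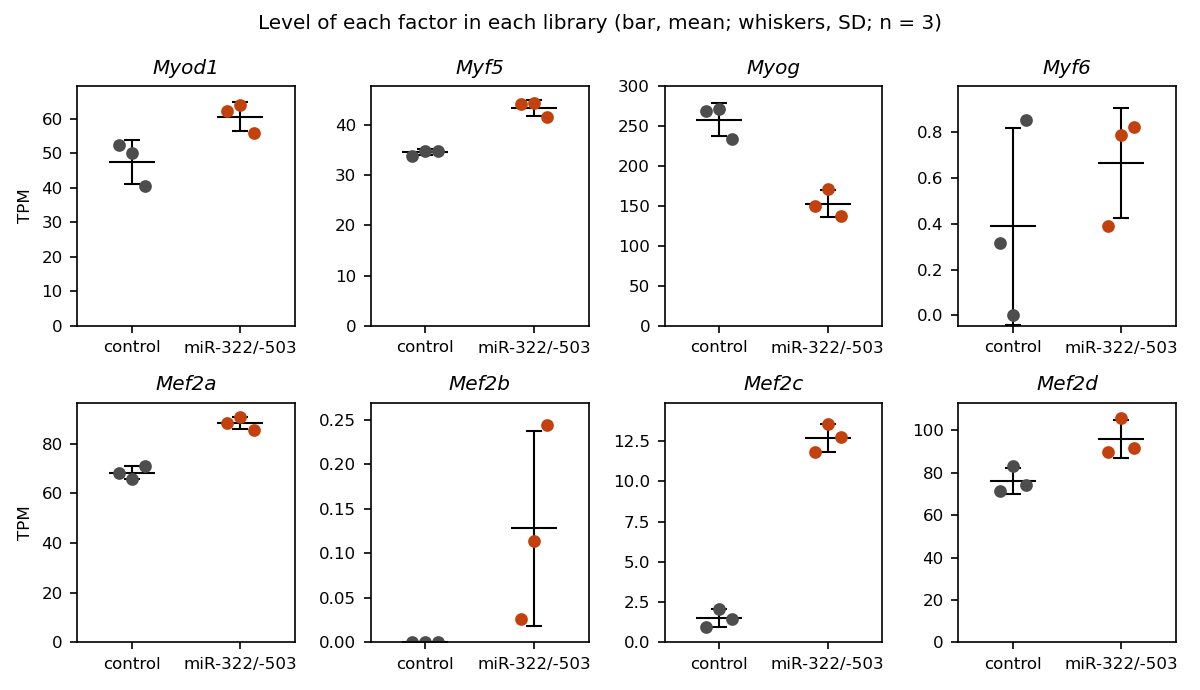
TPM of each of the 8 factors (y axis, a separate linear scale per gene) in the 3 control and 3 miR-322/-503 libraries, with the mean as a bar and the SD as whiskers. The groups do not overlap for Myod1, Myf5, Myog, Mef2a, Mef2c and Mef2d, and they overlap for Myf6. Mef2b is at 0 in the control and at most 0.244 TPM in the miR-322/-503 libraries.

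Myod1, the factor that can turn other cells into myoblasts, lies at chr7:46376474-46379099 on the plus strand of GRCm38. It was measured at 50.7, 49.3 and 39.8 CPM (counts per library size, scaled by TMM) in control replicates 1 to 3. In miR-322/-503 replicates 1 to 3 it was at 60.1, 62.2 and 58.1 CPM. The groups did not overlap, and control replicate 3 was the lowest library. In the test on estimated counts Myod1 rose by a log2 fold change of 0.37 (standard error 0.10, 1.29-fold), with an adjusted p of 0.0270 by edgeR. This call was lost when any single miR-322/-503 library was left out, with adjusted p of 0.0593, 0.0842 and 0.0575 without replicates 1, 2 and 3, and with limma on TPM, where the adjusted p was 0.0594 and 0.0611 with pseudocounts of 1 and 0.1.

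Myf5, the other determination factor, lies at chr10:107482908-107486134 on the minus strand. It was measured at 33.8, 34.9 and 34.8 TPM in the control libraries and at 44.2, 44.3 and 41.5 TPM in the miR-322/-503 libraries. Both groups were tight and well apart. The rise was 0.35 on the log2 scale (standard error 0.06, 1.27-fold, edgeR adjusted p 0.00364) and passed the test under each of the 15 other settings tried.

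Myog, the factor of terminal differentiation, lies at chr1:134289989-134292548 on the plus strand and was the only one of the 7 tested factors to fall. Its level was 269, 271 and 234 TPM in the control libraries and 151, 171 and 138 TPM in the miR-322/-503 libraries. The highest miR-322/-503 library was well under the lowest control library. Myog fell by 0.74 on the log2 scale (standard error 0.09, 1.67-fold lower, edgeR adjusted p 0.000665). The call held under each of the 15 other settings, with log2 fold changes between -0.81 and -0.70. Because Myog is also the most abundant of the 4 bHLH genes, their summed level was lower, at 341 ± 26.4 TPM in the control and 258 ± 22.3 TPM in the miR-322/-503 libraries, although Myod1 and Myf5 were higher.

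The proximal promoter of Myog is a textbook example of a region with E-boxes and a MEF2 site, and is shown for that reason. The window of 300 bases (RefSeq, GRCm38.p6, chr1:134289754-134290053, plus strand) has its E-boxes (CANNTG) and its match to the MEF2 consensus with any last base in capitals.
Myog promoter: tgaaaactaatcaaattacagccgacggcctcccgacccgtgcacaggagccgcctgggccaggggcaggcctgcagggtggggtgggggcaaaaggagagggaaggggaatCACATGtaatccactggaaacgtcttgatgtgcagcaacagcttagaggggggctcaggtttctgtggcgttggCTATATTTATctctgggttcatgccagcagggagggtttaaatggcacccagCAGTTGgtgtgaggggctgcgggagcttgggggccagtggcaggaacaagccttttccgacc
The match CTATATTTAT began 64 bases before the RefSeq start of transcription, and the E-boxes CACATG and CAGTTG began 138 and 12 bases before it. That start (chr1:134290004) lies 15 bases inside the gene as given above. An E-box of some kind was held by 72.3% of the 32851 mouse promoter windows of this length, and the MEF2 consensus with any last base by 7.66% (both strands searched). The libraries hold no measure of binding, so nothing about the use of these letters was measured.

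Myf6, the fourth bHLH gene, lies at chr10:107492853-107494737 on the minus strand, 6718 bases from Myf5. It was barely detected, with 17, 0 and 48 estimated counts in the control libraries and 25, 39 and 44 in the miR-322/-503 libraries. The groups overlapped, and control replicate 2 held none. Its log2 fold change of 0.78 had a standard error of 1.04 (edgeR adjusted p 0.635), so a change was not detectable at this depth.

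Mef2c showed the largest change of the 7 tested factors. The gene lies at chr13:83504034-83667080 on the plus strand. Control replicates 1 to 3 held 193, 133 and 135 estimated counts of it, whereas 1978, 1670 and 2014 were found in miR-322/-503 replicates 1 to 3. The lowest miR-322/-503 library held several times the counts of the highest control library. In TPM its level was 0.983, 2.10 and 1.48 in the control group, and 11.8, 13.5 and 12.7 with miR-322/-503. Mef2c rose by 3.61 on the log2 scale (standard error 0.21, 12.2-fold, edgeR adjusted p 2.2e-05). With limma on log2(TPM + 1) the log2 fold change was 2.46, and it passed the test under each of the 15 other settings.

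The Mef2c level in the control libraries was less sure than its direction. Control replicate 1 had the most counts of the 3 but the lowest TPM, and the estimated counts per TPM were 196, 63.4 and 90.9 in control replicates 1 to 3, whereas those of the single-transcript gene Myod1 were between 72.8 and 92.2 in the 6 libraries. Mef2c has 31 annotated transcripts in GENCODE M21, and the tables give genes and not transcripts, so a switch between isoforms could not be followed. The only other tested gene within 500 kb of Mef2c, C130071C03Rik, had a log2 fold change of 0.07. Over the 749 tested genes of chromosome 13 the median log2 fold change was 0.15.

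RefSeq gave 3 promoter windows for Mef2c, and the one at the annotated start of the gene (GRCm38.p6, chr13:83503784-83504083, plus strand) is shown, with E-boxes and the match to the MEF2 consensus with any last base in capitals.
Mef2c promoter: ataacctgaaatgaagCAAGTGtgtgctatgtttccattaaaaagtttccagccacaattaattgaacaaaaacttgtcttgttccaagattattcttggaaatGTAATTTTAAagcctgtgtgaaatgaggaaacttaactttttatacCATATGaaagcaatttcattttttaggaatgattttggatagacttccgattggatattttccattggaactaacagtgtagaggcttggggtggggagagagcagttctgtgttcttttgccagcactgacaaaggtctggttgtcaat
CAAGTG and CATATG began 234 and 100 bases before the start, and the loose match GTAATTTTAA, read on the other strand, began 146 bases before it. The MEF2 consensus itself was in none of the 3 windows. The muscle E-box CAGCTG, held by 16.3% of all windows, was in none of the 6 factor genes for which a window was found (Myog, Myf5, Mef2a, Mef2b, Mef2c and Mef2d).

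Mef2a, a broadly made MEF2 gene, lies at chr7:67231163-67372858 on the minus strand. Its level was 68.2, 65.8 and 70.9 TPM in the control libraries and 88.3, 90.6 and 85.6 TPM in the miR-322/-503 libraries. The groups were clearly apart, with little spread in either. Mef2a rose by 0.39 on the log2 scale (standard error 0.06, 1.31-fold, edgeR adjusted p 0.00172). The gene overlaps Gm44667 on the same strand, which held between 239 and 481 estimated counts per library, and Lysmd4 on the opposite strand, with between 1052 and 1349, against at least 13282 for Mef2a itself. Of its 75-base stretches, 2.56% also occurred in other genes.

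The window at the start of Mef2a (GRCm38.p6, chr7:67372809-67373108, minus strand) was the only one of the 8 factor windows with the MEF2 consensus, in capitals, which 3.19% of all windows held.
Mef2a promoter: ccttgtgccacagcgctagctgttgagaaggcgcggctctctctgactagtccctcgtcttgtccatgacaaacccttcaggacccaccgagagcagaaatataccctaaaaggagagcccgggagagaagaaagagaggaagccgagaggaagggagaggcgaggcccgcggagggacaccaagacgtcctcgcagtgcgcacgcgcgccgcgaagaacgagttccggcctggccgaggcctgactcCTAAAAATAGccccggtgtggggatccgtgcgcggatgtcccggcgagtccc

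Mef2d, the MEF2 gene of the highest level here, lies at chr3:88142372-88172086 on the plus strand. It stood at 71.1, 82.9 and 74.4 TPM in the control libraries and at 89.8, 106 and 91.7 TPM in the miR-322/-503 libraries. The groups did not overlap, and in each of them replicate 2 was the highest. Mef2d rose by 0.42 on the log2 scale (standard error 0.08, 1.33-fold, edgeR adjusted p 0.00537), and the call held under each of the 15 other settings with adjusted p up to 0.0419. Of its 75-base stretches, 7.29% were shared with 1700113A16Rik on the opposite strand, which held between 27 and 107 estimated counts per library.

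Mef2b, a MEF2 gene best known from lymphocytes, lies at chr8:70139711-70167488 on the plus strand. It was counted at 0 in each control library and at 2, 6 and 14 in the miR-322/-503 libraries, where only replicate 3 was above the level of 3 read pairs (12 estimated counts). It was filtered out of the edgeR test as too low. Tested without that filter its adjusted p was 0.0930, and DESeq2 gave 0.0497. The gene overlaps Borcs8 on the same strand, which held between 1482 and 2373 estimated counts, so reads of the pair may have been split, and no fold change is given.

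The make-up of each family was given as shares of its summed TPM. Myog made up 75.6%, 76.2% and 75.5% of the bHLH sum in the control libraries, and 58.5%, 61.1% and 58.4% with miR-322/-503. The share of Myod1 was 13.9% ± 0.861 in the control and 23.6% ± 0.664 in the miR-322/-503 libraries (SD, n = 3), and that of Myf5 was 10.2% ± 0.921 and 16.9% ± 0.940. The determination factors thus took a larger part of the bHLH sum in every miR-322/-503 library than in any control library.

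The ratio of Myog to Myod1 was 5.13, 5.43 and 5.79 in the control libraries and 2.42, 2.67 and 2.47 in the miR-322/-503 libraries. The groups did not overlap and the ratio was 2.16-fold lower with miR-322/-503. The exact permutation test, two-sided, gave p = 0.10, which is the smallest p that 3 against 3 libraries allow.

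In the MEF2 family, the share of Mef2c was 0.701%, 1.39% and 1.01% in the control libraries and 6.22%, 6.44% and 6.69% in the miR-322/-503 libraries. Mef2a and Mef2d together still made up most of the sum in every library, with Mef2a at 46.8% ± 2.80 in the control and 44.9% ± 1.70 in the miR-322/-503 libraries, and Mef2d at 52.1% ± 2.48 and 48.6% ± 1.60. The ranges of Mef2a overlapped between the groups. The summed TPM of the MEF2 genes was 146 ± 5.31 in the control and 197 ± 11.6 in the miR-322/-503 libraries.

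The ratio of Mef2c to Mef2a was 0.0144, 0.0319 and 0.0209 in the control libraries and 0.134, 0.149 and 0.149 in the miR-322/-503 libraries. It was 6.76-fold higher with miR-322/-503, with no overlap and an exact two-sided permutation p of 0.10, the smallest possible. The size of this change rests on the TPM of Mef2c in the control libraries, which was unsure as given above.

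**Figure D3:**
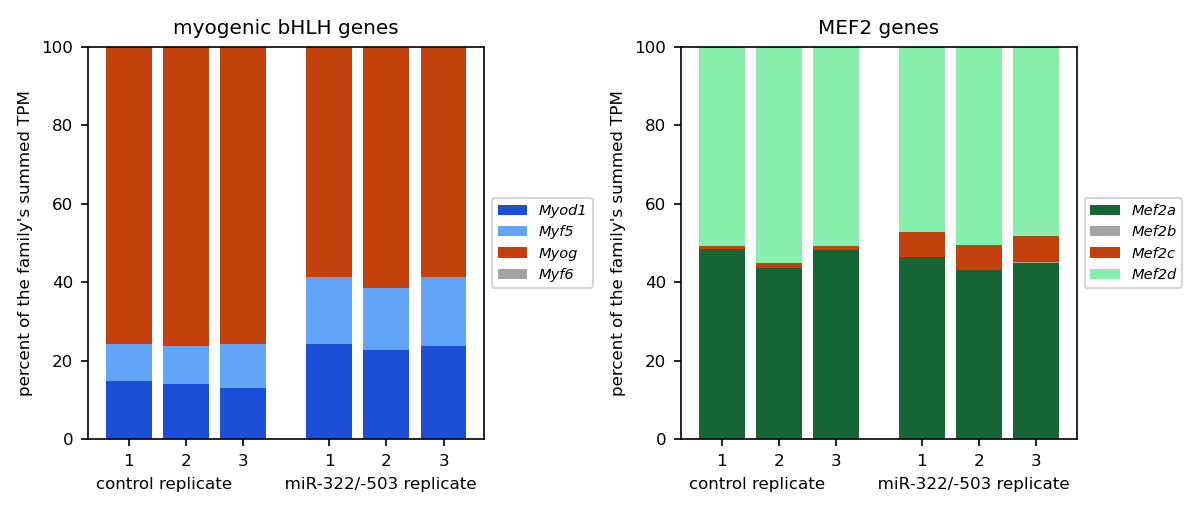
Percent of the summed TPM of the 4 myogenic bHLH genes (left) and of the 4 MEF2 genes (right) taken by each gene (y axis) in each library (x axis). The Myog part shrinks from 75.8% to 59.3% on average and the Mef2c part grows from 1.03% to 6.45%, while Myf6 and Mef2b are too small to see.

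Genes that work with or against the factors were taken as lists from general knowledge, with earlier results of these data known. Their counts are therefore a description of the lists. Of the 3 E proteins, the dimer partners of the bHLH factors, Tcf4 rose and Tcf3 and Tcf12 did not pass. Tcf4 was at 133 ± 3.01 CPM in the control and 178 ± 32.2 CPM in the miR-322/-503 libraries, with a log2 fold change of 0.42 (edgeR adjusted p 0.0443). This call was lost without any 1 of control replicates 1, 2 and 3 and of miR-322/-503 replicates 2 and 3, where the adjusted p was between 0.105 and 0.126, and with no filter on low counts (adjusted p 0.0616).

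Of 20 genes listed as opposing the bHLH factors or competing for their sites, 16 were tested. Of these, 5 rose and 4 fell, beside 13.2% and 15.5% of all tested genes, and the median log2 fold change was -0.08. The 5 were Msc, Hey1, Id2, Hes6 and Zeb1, and whether each opposes the factors in these cells was not tested. Msc (musculin), a bHLH repressor that binds E-boxes, was counted at no more than 10 in any control library and was at least 7.96-fold higher with miR-322/-503, at 1.17 ± 0.306 CPM (edgeR adjusted p 0.0114). Hey1, a Notch target, rose by 1.60 on the log2 scale (standard error 0.15). Id2, an HLH protein that sequesters E proteins, rose by 0.71 (standard error 0.09), although with limma on TPM its adjusted p was 0.102 and 0.104 with pseudocounts of 1 and 0.1.

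In the other direction, Snai1, a zinc-finger repressor of E-boxes, fell by 0.59 on the log2 scale (standard error 0.07) and its relative Snai2 fell by 0.40 (standard error 0.08). Id3, which acts like Id2, fell by 0.56 (standard error 0.16, edgeR adjusted p 0.0356), a call lost without any 1 of control replicates 1 and 2 and of miR-322/-503 replicates 2 and 3 (adjusted p between 0.0921 and 0.112). The antagonists therefore did not move one way as a group.

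Of 12 genes that act upstream of the factors, such as Pax3, Pax7 and Srf with its cofactors, 9 were tested and 1 rose, near the 13.2% of all tested genes that were higher. This was Mrtfb, a cofactor of Srf, which rose by 0.44 on the log2 scale (standard error 0.06, edgeR adjusted p 0.00182). With limma on TPM its adjusted p was 0.0553 and 0.0548 with pseudocounts of 1 and 0.1. The list's median log2 fold change was 0.11.

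Cofactors, kinases and deacetylases of the factors numbered 32, all tested, of which 4 rose and 7 fell, beside 13.2% and 15.5% of all tested genes, with a median log2 fold change of 0.00. The class II deacetylase Hdac9, a repressor of MEF2 and itself a known MEF2 target, stood at 1.46 ± 0.568 CPM in the control and 9.31 ± 0.643 CPM in the miR-322/-503 libraries, a rise of 2.67 on the log2 scale (standard error 0.26, edgeR adjusted p 0.000294). Mamstr, a coactivator of MEF2 and MyoD, rose by 2.49 (standard error 0.45). Sik1, a kinase that phosphorylates class II deacetylases, rose by 0.92 (standard error 0.12).

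Among those that fell, Mapk12 (p38 gamma), a kinase of the myogenic program, decreased by 0.85 on the log2 scale (standard error 0.12). Hdac7, another class II deacetylase, decreased by 0.68 (standard error 0.14), and Carm1, an arginine methyltransferase that acts with MEF2, decreased by 0.46 (standard error 0.07). The class II deacetylases thus split, with Hdac9 and Hdac4 higher, Hdac7 lower and Hdac5 at a log2 fold change of -0.03 that did not pass.

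Of 48 target genes of the bHLH and MEF2 factors, all tested, 29 rose, 4 fell and 15 did not pass, beside the 13.2% and 15.5% of all tested genes. Their median log2 fold change was 0.39. The summed level of the list was between 9018 and 10417 TPM in the control and between 12449 and 13686 TPM in the miR-322/-503 libraries. Myl1, a fast myosin light chain, was at 77.7 ± 10.8 CPM in the control and 281 ± 28.5 CPM in the miR-322/-503 libraries, a rise of 1.86 on the log2 scale (standard error 0.12). Pgam2, the muscle phosphoglycerate mutase, rose by 1.46 (standard error 0.13) and Srpk3, a kinase whose muscle enhancer is bound by MEF2, rose by 1.43 (standard error 0.11).

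The 4 targets that fell were Cdkn1c, Mb, Rbm24 and Xirp1. Cdkn1c (p57), a cyclin-dependent kinase inhibitor of cells leaving the cycle, was at 3.20 ± 0.541 CPM in the control and counted at no more than 5 in any miR-322/-503 library, at least 21.5-fold lower. Mb (myoglobin) decreased by 0.90 (standard error 0.15) and Rbm24, a muscle splicing factor, by 0.87 (standard error 0.19) on the log2 scale. Of the fusion genes, Mymk (Myomaker) was at 226 ± 49.0 CPM in the control and 170 ± 14.7 CPM in the miR-322/-503 libraries, a log2 fold change of -0.41 that did not pass (edgeR adjusted p 0.0796, DESeq2 0.0207) and that was -0.22 without control replicate 3. Mymx (Myomixer) rose by 0.37 (standard error 0.09, edgeR adjusted p 0.0196), a call lost without any 1 of control replicates 1 and 3 and of miR-322/-503 replicates 2 and 3, where the adjusted p was between 0.0578 and 0.0661.

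**Figure D4:**
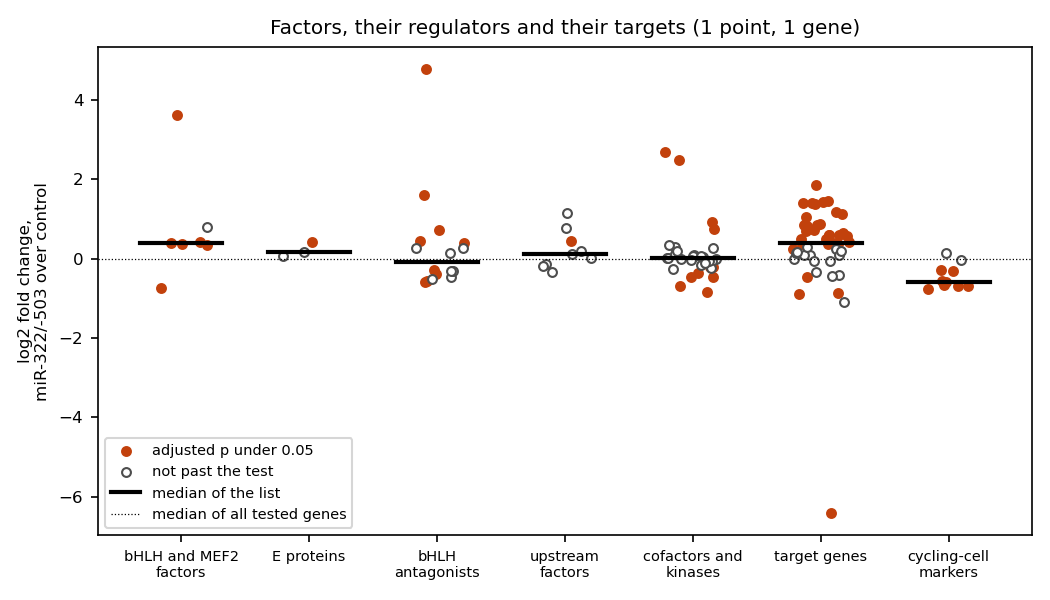
Log2 fold change, miR-322/-503 over control (y axis), of each tested gene of the factors, of the lists of their partners, antagonists, upstream genes, cofactors and targets, and of the cycling-cell markers. Filled points passed an adjusted p of 0.05, black bars are list medians, and the target list (median 0.39) and the cycling-cell markers (median -0.59) lie on opposite sides of the median of all tested genes (-0.01).

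Markers of other states were read beside these results. Of 10 cycling-cell markers, 8 fell and none rose, beside 15.5% and 13.2% of all tested genes, and their summed level was between 512 and 523 TPM in the control and between 349 and 370 TPM in the miR-322/-503 libraries. Top2a, the topoisomerase of dividing cells, was the highest of them and fell by 0.58 on the log2 scale (standard error 0.06). The part of this shift in the levels of the factors was not tested.

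Of 6 osteoblast markers 4 were tested and 1 fell, beside 15.5% of all tested genes, with summed levels of 28.1 to 30.1 TPM in the control and 25.5 to 29.5 TPM in the miR-322/-503 libraries. Runx2, the highest of them, overlapped between the groups, and Ibsp was at 0 in every library. Of 6 adipocyte markers 3 were tested, with 1 higher and 1 lower, beside 13.2% and 15.5% of all tested genes, and summed levels of 13.0 to 15.0 and 16.2 to 19.4 TPM. Pparg, the highest of them, overlapped between the groups, and the defining genes Adipoq and Fabp4 were at 0 in every library. Of 8 endothelial, leukocyte, epithelial and neuronal markers only Tubb3 was tested, and it rose by 1.14 (standard error 0.06). The leukocyte marker Adgre1 was at 0 in every library, and the summed level of these 8 was between 48.5 and 51.9 TPM in the control and between 97.9 and 119 TPM in the miR-322/-503 libraries. Nearly all of this sum was Tubb3, at a mean of 49.9 TPM in the control and 109 TPM in the miR-322/-503 libraries.

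By their pattern over the 6 libraries (Euclidean distance of log2(CPM + 0.5) centred on its mean, among 13596 genes of at least 1 CPM), the genes nearest to Mef2c were Stmn4, Alox5 and Hdx, at distances of 0.421, 0.497 and 0.529. This choice rests on the pseudocount, since with 0.1 CPM in its place, an alternative added after seeing the data, these genes ranked 31, 9 and 104. Stmn4, a stathmin of neurons, rose by 4.58 on the log2 scale and Alox5, the 5-lipoxygenase, rose by 3.30. Hdx, a homeobox gene, was counted at no more than 9 in any control library and was at least 24.5-fold higher with miR-322/-503.

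The changes of the factors were set against the choice of tool, filter and scaling. Over the 15 other settings the log2 fold change of Myf5 was between 0.32 and 0.36, that of Mef2a between 0.36 and 0.42, and that of Mef2d between 0.33 and 0.46. The call for Myod1 held in 10 of 15 and those of Myf5, Myog, Mef2a, Mef2c and Mef2d in each.

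**Figure D5:**
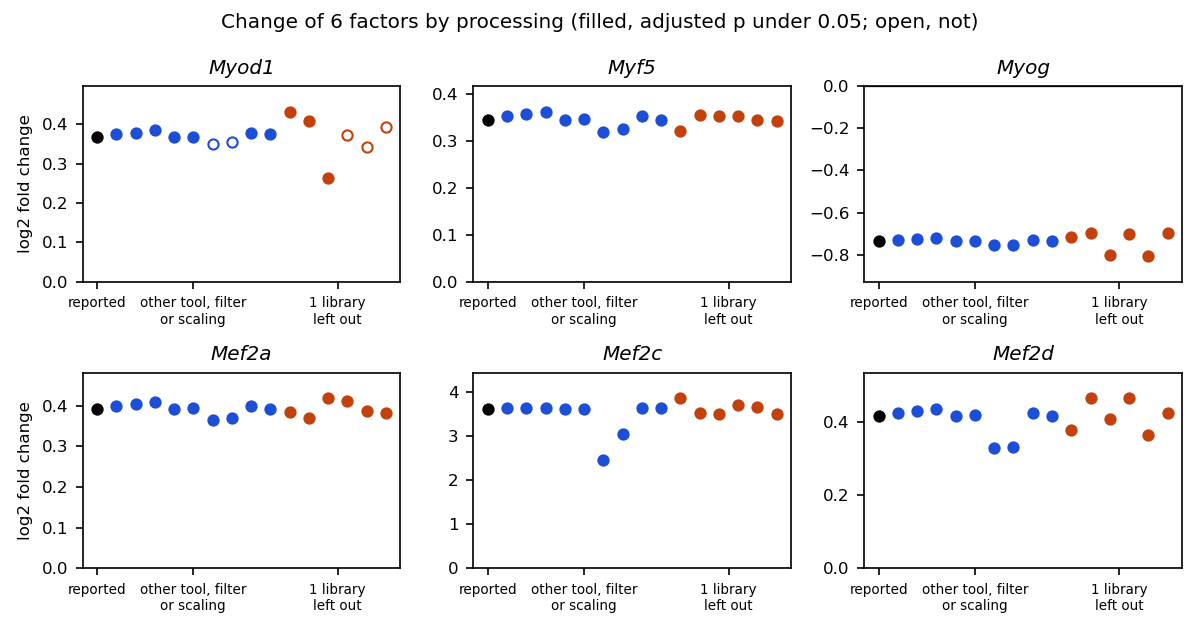
Log2 fold change (y axis) of the 6 factors past the test as reported (black), under 9 other tools, filters or scalings (blue) and with each of the 6 libraries left out (orange). Open points have an adjusted p of 0.05 or more and occur only for Myod1, and no point crosses 0.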

How the data were processed

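RNA-seq libraries of day 4 were made from total RNA, 3 per group. Trim Galore, HISAT2 (GRCm38) and StringTie were used by the authors for trimming, alignment and quantification, and versions and the annotation are not given in the sources used here. The deposited matrix holds estimated counts per gene as whole numbers, used as deposited. The deposited tables of single libraries hold TPM, used for levels, and FPKM and coverage (signal per base). Coverage served to find that a read pair stands for about 4 estimated counts. A few genes (7 to 13 per library) listed more than once had their TPM summed. Total estimated counts were between 73532084 and 92157388, or between 18383021 and 23039347 read pairs. A group at or under 3 read pairs gives only a bound, which covers counting error only.

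Genes were tested with edgeR 4.0.16 (filterByExpr, TMM, glmQLFit, glmQLFTest, Benjamini-Hochberg over 18140 genes) in R 4.3.3. The TMM factors were between 0.977 and 1.03. DESeq2 1.42.0, limma 3.58.1 on log2(TPM + pseudocount), other factors and filters, counts per read pair, a replicate block and leaving out each library were alternatives. On data simulated from this comparison, with 17642 genes tested, edgeR recovered 195 of 200 genes that differed 4-fold between the groups. It also called 10 unchanged genes. Changes smaller than 4-fold, such as those of the tested factors other than Mef2c, were not simulated. Ratios of TPM were compared with exact permutation tests.

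The factor genes and the lists were chosen with earlier results of these data known. Named beside the factors were Mir322 and Mir503, the up to 3 largest rises and 3 largest falls per list among genes with an adjusted p under 0.05 and at least 1 CPM in the higher group, Mymk and Mymx, the marker of the highest TPM per marker list and the 3 genes nearest to Mef2c. Hdac4, Hdac5, Xirp1, Tcf3, Tcf12, Hes6, Zeb1 and C130071C03Rik were named after their values were seen. So were Des, Cdh15, Ckm, Acta1, Lpl, Cebpa, the overlapping genes and marker genes at 0. For each gene the longest 3'UTR (50 bases or more) came from GENCODE M21, whose IDs matched 55154 of 55421 genes.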

Additional observations from a re-analysis of the deposited data

How the results depend on the processing

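Over all alternatives run, no log2 fold change of a tested factor or of a gene named by rule from the lists changed sign, and neither did a ratio (the genes nearest to Mef2c and those named after their values were seen were not run). The genes past both limits numbered 394 upward and 568 downward by limma with a pseudocount of 1, and 832 and 959 as reported. The Myod1 log2 fold change was 0.35 and 0.36 with limma and pseudocounts of 1 and 0.1, no longer past the test, and lay between 0.26 and 0.43 without single libraries. With DESeq2, 2 factors passed both limits (Mef2c and Mef2b) and 2 of the other-cell markers rose. The E proteins past the test numbered 0 without a filter on low counts, 0 with the replicate block (Tcf4 adjusted p 0.0549), 2 with counts per read pair and from 0 to 1 without single libraries. Of the upstream genes 0 passed with limma at either pseudocount, of the osteoblast markers 0 fell when each library had to hold at least 10 counts, from 0 to 1 rose without single libraries, and from 1 to 2 other-cell markers rose.

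Levels depended on the transcript length used. With counts divided by the union of all annotated exons, the control and miR-322/-503 means in TPM were 67.1 and 83.4 for Myod1, 48.7 and 59.6 for Myf5, 364 and 211 for Myog, 31.6 and 39.9 for Mef2a, and 0.325 and 3.80 for Mef2c, while Myf6 was at 0.922 with miR-322/-503 and Mef2d at 68.1 in the control. The shares of Mef2a were then 31.6% and 30.4%, those of Mef2c 0.326% and 2.91%, those of Mef2d 68.0% and 66.5%, and that of Mef2b was 0.132% with miR-322/-503. The direction between the groups stayed. Mef2a, whose mean was below only those of Myog and Mef2d in the deposited TPM, then also stood below Myod1 and Myf5. The labels do not say what a shared replicate number stands for, and the correlations of same-numbered deviations were 0.241, 0.137 and 0.0960, so the samples were not treated as pairs, although each correlated best with its own number. The replicate block left 5 factors higher and 1 lower, as reported. At 3 libraries per group and this depth, Myf6 and Mef2b could not be judged.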

Other observations

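Genes around the neighbouring Myf5 and Myf6 moved in both directions. Of the 5 other tested genes within 500 kb, 3 fell and 1 rose, beside 15.5% and 13.2% of all tested genes. The remaining gene, Otogl, did not pass (edgeR adjusted p 0.639). Lin7a, a scaffold protein of cell junctions, was counted at 108, 65 and 171 in the control libraries and at 0 in each miR-322/-503 library (edgeR adjusted p 0.00100). Acss3, an acyl-CoA synthetase, was counted at 93, 86 and 59 in the control and at 16, 0 and 5 in the miR-322/-503 libraries (edgeR adjusted p 0.0156). Gm29674 was counted at 12, 14 and 14 in the control and at 0 in each miR-322/-503 library (edgeR adjusted p 0.00869). Ptprq, a receptor phosphatase gene on the other side of Myf6, was counted at 114, 102 and 104 in the control and at 222, 165 and 188 in the miR-322/-503 libraries, a rise of 0.83 on the log2 scale (edgeR adjusted p 0.0119). These genes were named after their values were seen, all are low, and the cause was not tested.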
